A study of Homo sapiens with 58 samples.

Results

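The HOX cluster genes are the human genes whose symbol is HOX followed by the letter A, B, C or D and a paralog number. On the Affymetrix U133 Plus 2.0 array used here, 44 probe sets name exactly 1 such gene. They measure 28 HOX genes of 19775 genes in all. Where a gene had several, the brightest on average across the 58 arrays stood for it, and the choice used no difference between samples. Cluster A is represented by HOXA2 alone (chromosome 7, 27100354 to 27102683). In the platform annotation used, no other HOXA gene had a probe set with its symbol alone, so the other HOXA genes were not assessed. HOXB has 10 genes (chromosome 17, from 48528526 to 48728750), HOXC has 9 (chromosome 12, from 53938831 to 54056030) and HOXD has 8 (chromosome 2, from 176087487 to 176190907), in coordinates of the RefSeq annotation of GRCh38.p14. The annotation lists 39 HOX genes in these clusters. HOXD3 shares its probe sets with other symbols and was not analysed.

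HOX genes encode homeodomain transcription factors, and their order along the chromosome matches the order in which they are used along the body axis, with low paralog numbers toward the head and high numbers toward the tail. Polycomb complexes keep the clusters silent, Trithorax complexes keep them active, and retinoic acid induces the genes at the low-numbered end. Epidermal keratinocytes and dermal fibroblasts of adult skin keep HOX patterns that differ by body site.

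RNA came from HaCaT, an immortalized line of human keratinocytes that arose without an introduced oncogene and carries mutant p53, and from 4 lines made from it by forced expression. HaCaT-vector is the mock line, HaCaT-EGFR carries wild-type EGFR, the receptor of epidermal growth factor, HaCaT-p65 carries RELA/p65, a subunit of NF-kappa-B, and HaCaT-HRAS carries the activated HRAS-VAL12D. Cells in serum gave 5 arrays of HaCaT-EGFR, 2 of them from another processing date at 4 h and 8 h, and 3 arrays for every other line. Starved cells were kept without serum for 12 h in the protocol given for HaCaT-EGFR. They were measured on 4 arrays of HaCaT-vector (labelled 4 h), 7 of HaCaT-EGFR (4 h or 8 h) and 3 of HaCaT-p65 (4 h or 8 h). HaCaT-vector (4 arrays, 4 h) and HaCaT-EGFR (7 arrays, 4 h or 8 h) received EGF, and HaCaT-vector (3 arrays, 4 h) and HaCaT-p65 (5 arrays, 4 h or 8 h) received TNF-α. Either ligand was given at 10 ng/ml. Gefitinib, an inhibitor of the EGFR kinase, was combined with EGF or with serum in HaCaT-EGFR (2 arrays each, 1 at 4 h and 1 at 8 h). LY294002, an inhibitor of PI3K, and U1026, an inhibitor so spelled in the labels, were combined with EGF for 4 h. Each had 1 array of HaCaT-vector and 1 of HaCaT-EGFR. Every introduced gene was carried by 1 line, and the sources used here do not say whether a line was a clone or a pool, so the introduced gene and other differences between lines cannot be told apart. No source says that replicates were separate cultures, so p-values measure only the spread between these arrays.

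Values are log2 levels corrected for processing date by the authors. Only HaCaT-EGFR in serum linked date 1, the date of all other serum arrays, to another date. The correction therefore gave its serum arrays of date 6 the same mean as those of date 1. Its serum arrays of date 6 are thus no separate evidence on differences between lines in serum. A change is a difference of log2 levels from limma with its standard error (SE), and a gene passed the test when its p-value, adjusted by Benjamini-Hochberg over all 19775 genes, was under 0.05. The HRAS probe set read 9.90 to 10.08 on the HaCaT-HRAS arrays and 7.27 to 7.74 on the other serum arrays. RELA averaged 10.24 in HaCaT-p65 and 9.97 in HaCaT-vector. EGFR was not higher in HaCaT-EGFR at its brightest probe set (9.58 against 9.59 in HaCaT-vector), while 2 other EGFR probe sets averaged 7.04 against 6.04 and 7.24 against 6.26. All 7 measured keratinocyte markers lay above 5.097, the level below which 95% of 82 olfactory receptor genes fell and which serves here as the mark of a dim signal. Of other cell types, 5 of 9 measured fibroblast markers, 2 of 5 melanocyte markers, 1 of 5 endothelial markers and 0 of 4 leukocyte markers averaged above it. No condition mean of 6 HOX genes, HOXB13, HOXC8, HOXC12, HOXD1, HOXD4 and HOXD12, lay above it, and 22 HOX genes passed it in some condition.

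Promoter sequences, the 250 bases before an annotated start of the gene, were present for 11 of the 28 HOX genes in the RefSeq table of GRCh38.p14. Those of the genes that carry the results below and have an entry are printed 5′ to 3′ on the gene's strand, with the letters of the searched motifs in capitals. HOXD8 (chr2:176129455-176129704, plus strand) was higher in HaCaT-EGFR, HaCaT-p65 and HaCaT-HRAS than in HaCaT-vector, but was not called in HaCaT. HOXD10 (chr2:176116528-176116777, plus strand) was higher in every other line than in HaCaT-vector. HOXD13 (chr2:176092471-176092720, plus strand) was higher in HaCaT-HRAS. HOXA2 (chr7:27102684-27102933, minus strand) was lower with EGF and with serum in HaCaT-EGFR. The HOXD13 window lies inside the annotated span of that gene, which begins at 176087487.
HOXA2: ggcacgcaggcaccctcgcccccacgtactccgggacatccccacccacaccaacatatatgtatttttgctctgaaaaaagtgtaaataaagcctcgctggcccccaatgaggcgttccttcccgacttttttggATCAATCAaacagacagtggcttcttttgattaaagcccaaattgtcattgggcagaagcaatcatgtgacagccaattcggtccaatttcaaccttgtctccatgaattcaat
HOXD8: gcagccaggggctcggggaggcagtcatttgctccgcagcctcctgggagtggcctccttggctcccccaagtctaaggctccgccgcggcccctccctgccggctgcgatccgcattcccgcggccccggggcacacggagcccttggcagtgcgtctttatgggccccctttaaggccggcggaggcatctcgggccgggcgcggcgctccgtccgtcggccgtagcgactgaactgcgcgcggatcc
HOXD10: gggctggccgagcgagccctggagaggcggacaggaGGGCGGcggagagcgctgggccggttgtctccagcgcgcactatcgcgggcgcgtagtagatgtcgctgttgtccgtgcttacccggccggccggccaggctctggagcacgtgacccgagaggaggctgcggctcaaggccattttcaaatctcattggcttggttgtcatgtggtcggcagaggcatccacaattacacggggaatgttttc
HOXD13: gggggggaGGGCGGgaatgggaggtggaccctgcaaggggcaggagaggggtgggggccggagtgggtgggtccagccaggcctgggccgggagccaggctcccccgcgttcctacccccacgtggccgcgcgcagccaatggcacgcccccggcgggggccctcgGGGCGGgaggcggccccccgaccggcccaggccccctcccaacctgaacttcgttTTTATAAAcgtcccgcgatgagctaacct
Motifs were searched on both strands with the TATA box written as TATAAA, the GC box as GGGCGG, the AP-1 site as TGANTCA, the ETS site as CCGGAAGT, the NF-kappa-B site as GGGACTTTC and the PBX-HOX site as TGATTNAT. The AP-1 and PBX-HOX words can match overlapping letters, and neither did so in these windows. HOXA2 held 1 PBX-HOX match, in reverse orientation, which 2.48% of 34788 promoters also held. HOXD10 held 1 GC box and HOXD13 held 2, a motif in 42.6% of all promoters. HOXD13 also held TATAAA on both strands in overlapping positions, a motif in 10.8% of promoters. HOXD8 held none of the 6. No AP-1 (6.59% of promoters), ETS (3.41%) or NF-kappa-B match (0.325%) lay in the windows of the 11 HOX genes. HOXD8, HOXD10 and HOXD13 held 28, 23 and 21 CpG dinucleotides and HOXA2 held 8, against a median of 11 over all promoters.

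Across the 5 lines in serum, 16 of the 28 HOX genes (57.1%) differed by limma's moderated F test, where 29% of all genes did. By cluster these were HOXA2, 6 of 10 HOXB genes, 4 of 9 HOXC genes and 5 of 8 HOXD genes. The range between the highest and the lowest line mean had a median of 0.83 over the 28 genes and 0.35 over all genes, on the log2 scale. It was 1.00 in HOXB, 0.55 in HOXC and 0.91 in HOXD. The widest range, 3.15, was that of HOXB6 (adjusted p = 1.35e-17). RNA came from whole cultures, so fewer cells that express a gene and less RNA per cell cannot be told apart. Without 1 serum array at a time, between 13 and 16 HOX genes passed. HOXA2 lost its call without HaCaT replicate 1 or 2 or HaCaT-p65 replicate 2 or 3 (range of means 0.56 to 0.82), HOXC13 without HaCaT-p65 replicate 3 (0.91), HOXD11 without HaCaT-p65 replicate 2 or 3 (0.77 and 0.75) and HOXC9 without any HaCaT-HRAS array or HaCaT-EGFR replicate 1 or 2 of date 1 (0.78 to 0.91).

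**Figure D1:**
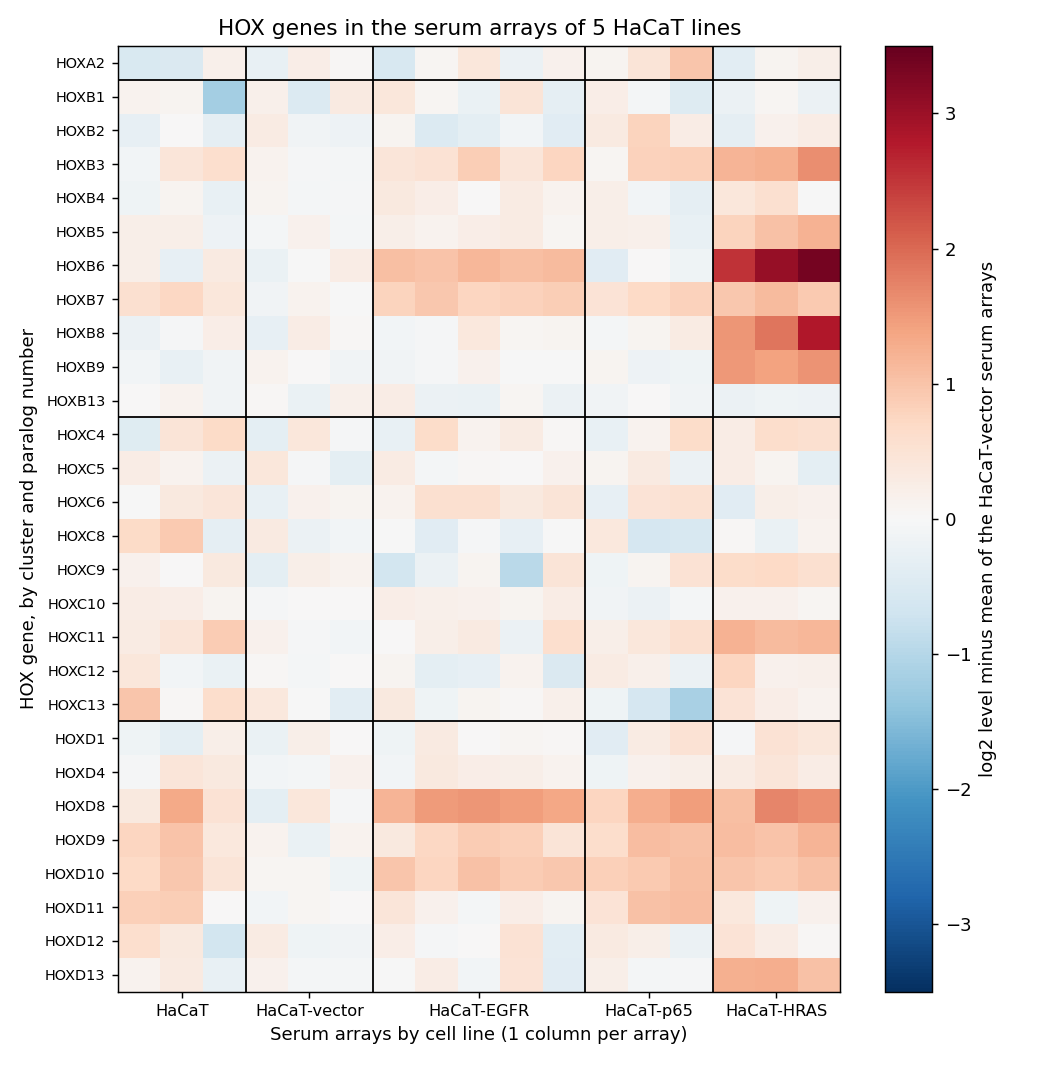
Each row is a HOX gene, ordered by cluster and paralog number, and each column a serum array, ordered by line. Colour gives the log2 level minus the mean of the 3 HaCaT-vector serum arrays, and HOXB6 and HOXB8 are the most intense rows in HaCaT-HRAS, while HOXD8, HOXD9 and HOXD10 are higher outside HaCaT-vector.

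HaCaT-HRAS against HaCaT-vector asks what differs in a keratinocyte line that carries activated HRAS. In serum, 12 HOX genes were higher in HaCaT-HRAS and 0 were lower by limma. At an unadjusted p under 0.05, 13 were higher and 0 were lower. Of all genes, 9.57% were higher and 8.63% lower. Against HaCaT, 9 HOX genes were higher and 0 were lower, where 8.85% of all genes were higher. They were the same 6 HOXB genes, HOXC11, HOXD10 and HOXD13. With only the arrays compared in the fit, HOXB7, HOXC11 and HOXD10 lost these calls (limma adjusted p = 0.112, 0.0752 and 0.386). The changes from HaCaT-vector had a median of 0.34 over the 28 HOX genes, against -0.04 over all genes, and the medians by cluster were 1.00 for HOXB, 0.27 for HOXC and 0.64 for HOXD. Genes that were higher were HOXB3, HOXB5, HOXB6, HOXB7, HOXB8 and HOXB9 of the B cluster, HOXC9 and HOXC11 of the C cluster and HOXD8, HOXD9, HOXD10 and HOXD13 of the D cluster.

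HOXB6, a gene of the middle of its cluster, had log2 levels of 5.47, 4.98 and 5.58 in HaCaT, 5.03, 5.23 and 5.51 in HaCaT-vector, 6.32, 6.27, 6.42, 6.32 and 6.36 in HaCaT-EGFR, 4.86, 5.26 and 5.12 in HaCaT-p65 and 7.79, 8.31 and 8.60 in HaCaT-HRAS. All HaCaT-HRAS arrays stood above every other array of the series, whose highest value was 6.42, and the HaCaT-EGFR serum arrays lay between them and the serum arrays of the remaining lines without overlap. HOXB6 was 7.86-fold higher in HaCaT-HRAS than in HaCaT-vector, a log2 change of 2.98 ± 0.18 (adjusted p = 2.74e-16). Against HaCaT the change was 2.89 ± 0.18.

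HOXB8, its neighbour next but one, read 3.57, 3.73 and 3.99 in HaCaT, 3.48, 4.02 and 3.79 in HaCaT-vector, 3.68, 3.72, 4.14, 3.83 and 3.86 in HaCaT-EGFR, 3.71, 3.87 and 4.04 in HaCaT-p65 and 5.32, 5.63 and 6.57 in HaCaT-HRAS. Outside HaCaT-HRAS no array of the series was above 4.19, so the gene passed the dim mark of 5.097 on the HaCaT-HRAS arrays and nowhere else. Its change against HaCaT-vector was 2.08 ± 0.20 (adjusted p = 1.28e-10), 4.22-fold, with the widest spread of the HaCaT-HRAS arrays among the HOXB genes shown.

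HOXB9, which follows HOXB8, read 5.34, 5.18 and 5.30 in HaCaT, 5.56, 5.44 and 5.30 in HaCaT-vector, 5.30, 5.38, 5.60, 5.43 and 5.42 in HaCaT-EGFR, 5.53, 5.25 and 5.29 in HaCaT-p65 and 6.97, 6.84 and 7.00 in HaCaT-HRAS. The HaCaT-HRAS arrays lay close together and above all others, of which the highest was 5.89. The change was 1.5004 ± 0.17 (adjusted p = 2.8e-09), 2.83-fold.

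HOXB5 read 5.99, 6.00 and 5.60 in HaCaT, 5.71, 5.93 and 5.71 in HaCaT-vector, 6.00, 5.91, 6.00, 6.08 and 5.86 in HaCaT-EGFR, 5.99, 5.97 and 5.53 in HaCaT-p65 and 6.56, 6.80 and 7.01 in HaCaT-HRAS. Only the HaCaT-HRAS arrays stood apart, and the other 4 lines overlapped. The change against HaCaT-vector was 1.01 ± 0.16 (adjusted p = 7.13e-06).

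HOXB3, toward the low-numbered end of the cluster, read 5.02, 5.54 and 5.69 in HaCaT, 5.25, 5.06 and 5.04 in HaCaT-vector, 5.53, 5.63, 5.96, 5.55 and 5.87 in HaCaT-EGFR, 5.17, 5.92 and 5.95 in HaCaT-p65 and 6.29, 6.36 and 6.75 in HaCaT-HRAS. The HaCaT-HRAS arrays were above all other serum arrays but not above the starved arrays of HaCaT-EGFR, which reached 6.40. Its change was 1.35 ± 0.22 against HaCaT-vector (adjusted p = 8.1e-06) and 1.05 ± 0.22 against HaCaT.

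HOXB7 differed in another way. Its levels were 8.55, 8.72 and 8.38 in HaCaT, 7.88, 8.12 and 7.97 in HaCaT-vector, 8.78, 8.94, 8.74, 8.80 and 8.84 in HaCaT-EGFR, 8.47, 8.70 and 8.80 in HaCaT-p65 and 8.95, 9.10 and 8.92 in HaCaT-HRAS. HaCaT-vector was lowest with no overlap, and HaCaT-EGFR and HaCaT-HRAS overlapped. The change of HaCaT-HRAS was 1.00 ± 0.11 against HaCaT-vector (adjusted p = 8.44e-10) but 0.43 ± 0.11 against HaCaT (adjusted p = 0.00205). The latter call was lost with only the arrays compared in the fit.

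The other HOXB genes did not pass. The 95% interval of the change was -0.01 to 0.65 for HOXB4, -0.41 to 0.49 for HOXB2, -0.86 to 0.63 for HOXB1 and -0.49 to 0.14 for HOXB13. The mean log2 level of the 10 HOXB genes per array was 6.19 to 6.50 in HaCaT-HRAS and at most 5.70 on the other serum arrays.

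**Figure D2:**
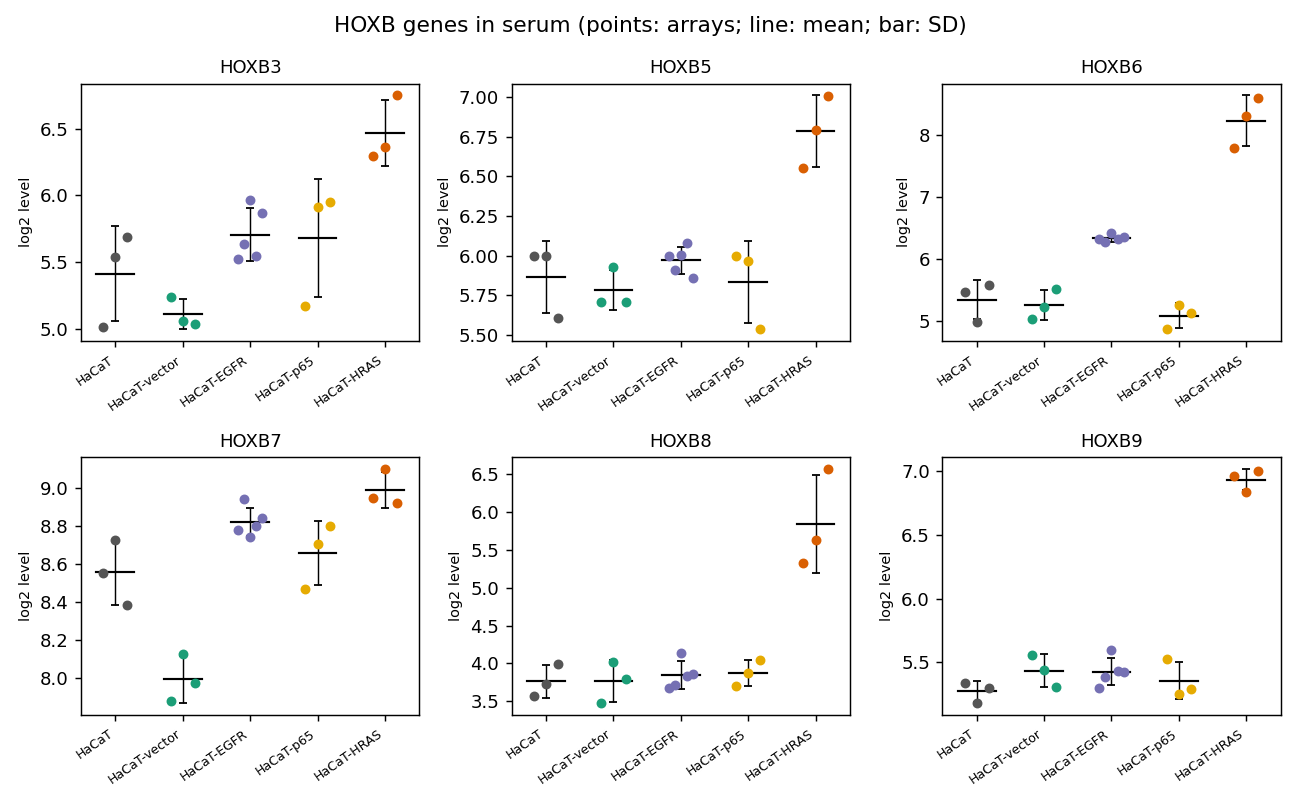
Log2 levels of 6 HOXB genes on the serum arrays of each line, with points for arrays, a line for the mean and bars for the SD. HOXB5, HOXB6, HOXB8 and HOXB9 stand apart in HaCaT-HRAS, HOXB6 is also higher in HaCaT-EGFR, and HOXB7 is lowest in HaCaT-vector.

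Among HOXC genes, HOXC11, a gene of the high-numbered end, read 6.57, 6.73 and 7.17 in HaCaT, 6.46, 6.24 and 6.19 in HaCaT-vector, 6.31, 6.51, 6.61, 6.08 and 6.87 in HaCaT-EGFR, 6.50, 6.69 and 6.87 in HaCaT-p65 and 7.52, 7.39 and 7.47 in HaCaT-HRAS. The HaCaT-HRAS arrays were the highest of the serum arrays and of the series. The change was 1.17 ± 0.20 against HaCaT-vector (adjusted p = 1.78e-05). Against HaCaT it was 0.64 ± 0.20, and the call was lost without any of 4 arrays, HaCaT replicates 1 and 2 and HaCaT-HRAS replicates 1 and 3, with changes of 0.51 to 0.63. HOXC9 rose by 0.63 ± 0.23 against HaCaT-vector (adjusted p = 0.0455), a call lost without any of 5 of the 6 arrays, HaCaT-vector replicate 2 excepted, with changes of 0.46 to 0.70. HOXC4, HOXC5, HOXC6, HOXC8, HOXC10, HOXC12 and HOXC13 did not pass, and their changes ran from -0.02 to 0.48.

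Of the HOXD genes, HOXD13, which works in the limb ends and the tail of the embryo, read 4.97, 5.18 and 4.61 in HaCaT, 4.995, 4.79 and 4.78 in HaCaT-vector, 4.85, 5.11, 4.75, 5.34 and 4.46 in HaCaT-EGFR, 5.05, 4.80 and 4.80 in HaCaT-p65 and 6.10, 6.13 and 5.89 in HaCaT-HRAS. The HaCaT-HRAS arrays were above every other array of the series, and the other lines overlapped around the dim mark. Its change was 1.18 ± 0.20 against HaCaT-vector (adjusted p = 9.51e-06) and 1.12 ± 0.20 against HaCaT. Its promoter, printed above, holds the 2 GC boxes and the TATAAA pair. HOXD8, HOXD9 and HOXD10 were higher too, by 1.46 ± 0.29, 1.09 ± 0.15 and 0.97 ± 0.10, but these genes also stood higher in the other lines, as given below.

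Probe sets of 1 gene did not always move together. For HOXB3, HOXB5, HOXB6, HOXB8, HOXD9 and HOXD13, the remaining probe sets, all of lower mean, gave changes of -0.13, -0.15, -0.08, -0.22, -0.21 and, for the 2 of HOXD13, 0.05 and -0.04, and none passed. HOXB7 gave 0.97 at a further probe set of similar level and 0.53 at a dimmer one, HOXB9 gave 0.48 at its dimmer probe set, and HOXD10 gave 0.74 and 0.91. HOXC9, HOXC11 and HOXD8 have 1 probe set each.

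HaCaT-HRAS arrays also differed in cell type markers. Of 7 keratinocyte markers 4 were lower, where 8.63% of all genes were. KRT14 (-2.33 ± 0.21) and KRT16 (-1.26 ± 0.29) kept their calls whichever array was left out, SFN (-0.89 ± 0.22) lost its call without HaCaT-HRAS replicate 1 (adjusted p = 0.0565) and DSG3 (-0.68 ± 0.24) without any of 5 of the 6 arrays, HaCaT-HRAS replicate 2 excepted (adjusted p up to 0.136), and the summed linear level of the 7 was 8594 to 11757 against 19359 to 23814 in HaCaT-vector. The sum of 9 fibroblast markers was 653 to 689 against 342 to 370, with TWIST1 (3.61) the only member higher, and that of 5 endothelial markers was 488 to 515 against 118 to 129, with CDH5 (4.29) the only member higher. The sum of 5 melanocyte markers was 318 to 376 against 296 to 329 and that of 4 leukocyte markers 71.9 to 75.9 against 75.1 to 87.9, with 0 of either list called. Their part in the HOX changes was not tested.

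HaCaT-vector stood lower than the other lines for a group of neighbouring HOXD genes. Against it, 3 HOX genes were higher in HaCaT, 5 in HaCaT-EGFR and 5 in HaCaT-p65, and 0 were lower in any of them by limma. At an unadjusted p under 0.05 the counts in either direction were 7, 8 and 9. Of all genes, 1.64%, 3.97% and 3.99% were higher in these comparisons, which share the 3 HaCaT-vector arrays. HOXB7, HOXD9 and HOXD10 were among the genes called in each of them, and HaCaT-HRAS, given above, shares the same control arrays. With only the arrays compared in the fit, 0 HOX genes were called in HaCaT. Cell type markers moved in these comparisons too. MITF, a melanocyte factor, was lower in HaCaT (-0.58 ± 0.16, a call lost without HaCaT replicate 1 or 2 or HaCaT-vector replicate 2 or 3, adjusted p up to 0.202), HaCaT-EGFR (-0.94 ± 0.16) and HaCaT-p65 (-0.69 ± 0.16), and the sum of 5 melanocyte markers was 296 to 329 in HaCaT-vector, 218 to 281 in HaCaT, 186 to 225 in HaCaT-EGFR and 211 to 245 in HaCaT-p65. In HaCaT-EGFR, COL3A1 was higher (2.24 ± 0.53) and KRT14 lower (-0.72 ± 0.21, a call lost without HaCaT-vector replicate 2 or 3 or date 1 replicate 1 or 3 of HaCaT-EGFR), and in HaCaT-p65, KRT16 was lower (-1.23 ± 0.29, a call lost without HaCaT-p65 replicate 3). The summed level of the 7 keratinocyte markers was 23962 to 32731 in HaCaT, 15441 to 20095 in HaCaT-EGFR and 17749 to 20433 in HaCaT-p65, beside the 19359 to 23814 of HaCaT-vector. That of the 9 fibroblast markers was 357 to 426, 385 to 418 and 342 to 376, beside 342 to 370. Leukocyte and endothelial markers had 0 calls in these 3 comparisons. The part of these markers in the HOX differences was not tested.

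HOXD10 read 9.11, 9.36 and 8.86 in HaCaT, 8.49, 8.49 and 8.28 in HaCaT-vector, 9.39, 9.19, 9.46, 9.32 and 9.36 in HaCaT-EGFR, 9.26, 9.33 and 9.46 in HaCaT-p65 and 9.39, 9.34 and 9.44 in HaCaT-HRAS. The 3 HaCaT-vector arrays were the lowest of the series, and the other lines overlapped. HOXD10 was higher by 0.69 ± 0.10 in HaCaT, 0.92 ± 0.10 in HaCaT-EGFR and 0.93 ± 0.10 in HaCaT-p65 (adjusted p = 1.41e-05, 7.87e-09 and 9.08e-09). Compared with HaCaT in place of HaCaT-vector, HaCaT-HRAS was higher by 0.28 ± 0.10 (adjusted p = 0.04998), a call lost with the replicate number as a block (adjusted p = 0.0702) and without any of 5 of the 6 arrays, HaCaT replicate 2 excepted, with changes of 0.15 to 0.30.

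HOXD9, the gene next to HOXD10, read 7.49, 7.72 and 7.10 in HaCaT, 6.84, 6.50 and 6.84 in HaCaT-vector, 7.07, 7.44, 7.61, 7.57 and 7.17 in HaCaT-EGFR, 7.34, 7.80 and 7.75 in HaCaT-p65 and 7.81, 7.72 and 7.92 in HaCaT-HRAS. HaCaT-vector was again lowest without overlap. The differences from it were 0.71 ± 0.15 in HaCaT, 0.64 ± 0.15 in HaCaT-EGFR and 0.90 ± 0.15 in HaCaT-p65 (adjusted p = 0.0022, 0.00221 and 2.45e-05). With only the arrays compared in the fit the calls in HaCaT and HaCaT-EGFR were lost (adjusted p = 0.347 and 0.0663), as they were with the serum arrays of date 1 alone (0.0837 and 0.0589). These values are those of the brighter probe set, and at the dimmer one the differences were -0.04, 0.06 and -0.04.

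HOXD8, the next gene along, read 5.17, 6.15 and 5.31 in HaCaT, 4.47, 5.20 and 4.78 in HaCaT-vector, 6.00, 6.32, 6.37, 6.28 and 6.18 in HaCaT-EGFR, 5.56, 6.10 and 6.28 in HaCaT-p65 and 5.87, 6.53 and 6.42 in HaCaT-HRAS. HaCaT and HaCaT-vector overlapped, and the other 3 lines were above HaCaT-vector without overlap. The differences from HaCaT-vector were 1.41 ± 0.29 in HaCaT-EGFR (adjusted p = 0.000607) and 1.17 ± 0.29 in HaCaT-p65 (adjusted p = 0.00573). The latter call was lost without HaCaT-vector replicate 1 (0.99) or HaCaT-p65 replicate 3 (1.01). In HaCaT the difference was 0.73, with a 95% interval of 0.14 to 1.31.

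HOXD11 was higher in HaCaT-p65 by 0.86 ± 0.22 (adjusted p = 0.00931). Its arrays read 6.73, 7.29 and 7.33 there and 6.17, 6.33 and 6.27 in HaCaT-vector, and the call was lost without HaCaT-p65 replicate 2 (0.77) or 3 (0.75). The mean log2 level of the 8 HOXD genes per array averaged 5.36 in HaCaT-vector, 5.74 in HaCaT, 5.80 in HaCaT-EGFR, 5.89 in HaCaT-p65 and 6.07 in HaCaT-HRAS.

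**Figure D3:**
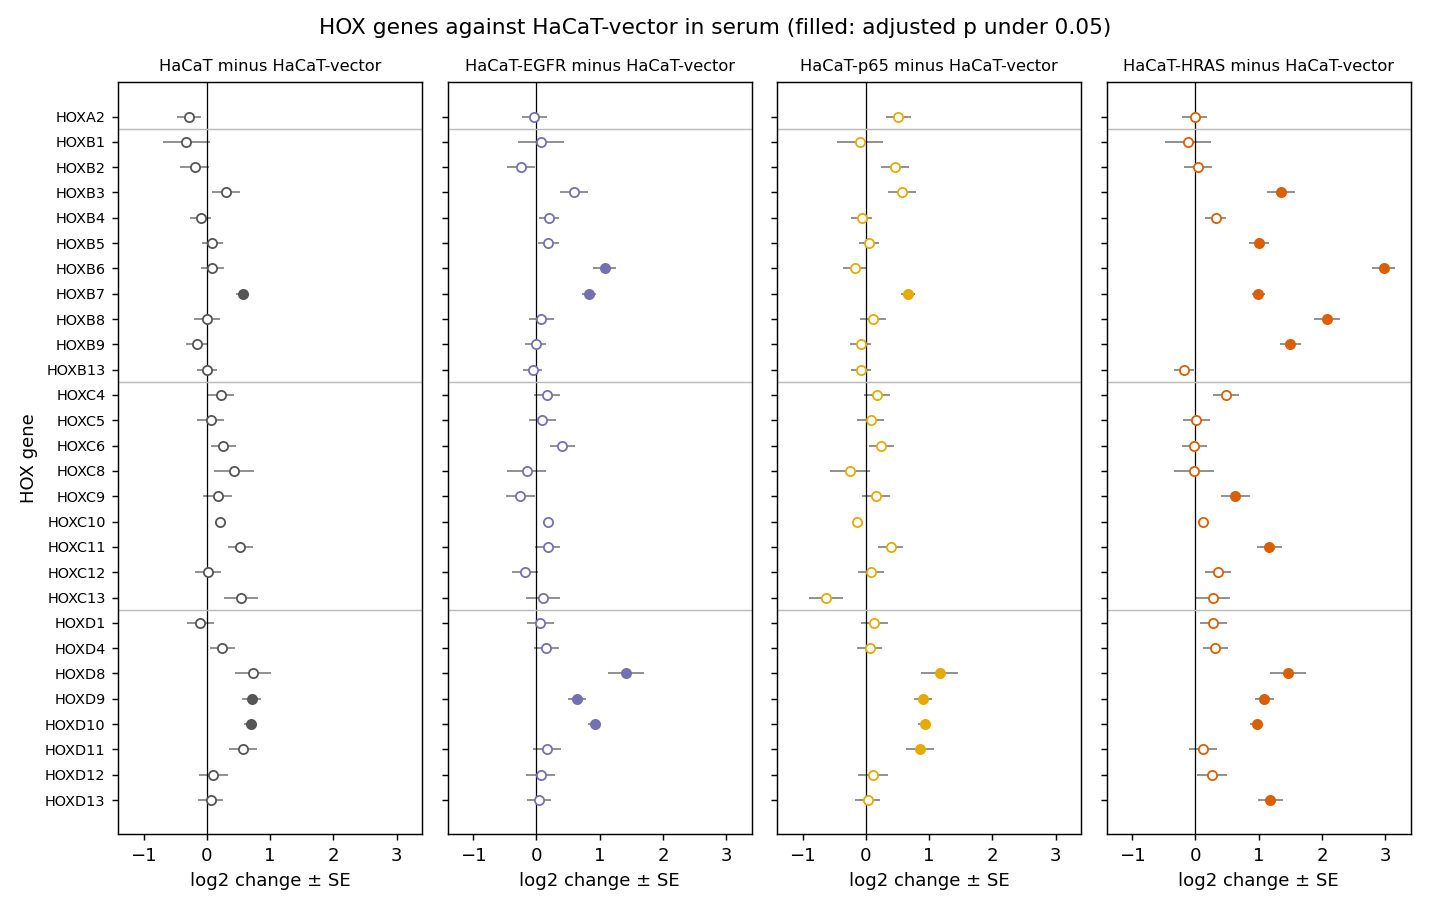
Log2 change of each HOX gene from HaCaT-vector in serum, with the SE as bars, for HaCaT, HaCaT-EGFR, HaCaT-p65 and HaCaT-HRAS. Filled points passed at an adjusted p under 0.05 (3, 5, 5 and 12 genes), and the 4 panels share the HaCaT-vector arrays.

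HOXB6 set HaCaT-EGFR apart from both controls. It was higher by 1.08 ± 0.18 than in HaCaT-vector (adjusted p = 5.46e-05) and by 1.00 ± 0.18 than in HaCaT (adjusted p = 0.000433). Against HaCaT it was the only HOX gene called, where 1.6% of all genes were higher, and that call was lost with only the arrays compared in the fit. Its 5 HaCaT-EGFR arrays, given above, had no overlap with HaCaT, HaCaT-vector or HaCaT-p65. The mean of those from date 6 was fixed by the date correction, so only the arrays of date 1 bear on this.

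HaCaT-p65 against HaCaT gave 1 HOX gene higher and 2 lower, where 5.94% of all genes were called in either direction, and 0 were called with only the arrays compared in the fit. HOXA2, a gene of the hindbrain and its neural crest in the embryo, read 6.60, 6.94 and 7.46 in HaCaT-p65 and 5.97, 5.98 and 6.68 in HaCaT, a change of 0.79 ± 0.20 (adjusted p = 0.00798). The groups overlapped, and the call was lost without HaCaT replicate 1 (0.67) or HaCaT-p65 replicate 3 (0.56) and with the serum arrays of date 1 alone (adjusted p = 0.167). HOXC13, which acts in hair and nail keratin expression, read 6.85, 5.92 and 6.50 in HaCaT, 6.27, 5.87 and 5.52 in HaCaT-vector, 6.23, 5.74, 5.99, 5.92 and 6.06 in HaCaT-EGFR, 5.73, 5.29 and 4.76 in HaCaT-p65 and 6.37, 6.11 and 6.00 in HaCaT-HRAS. HaCaT-p65 was lower than HaCaT without overlap, with a change of -1.16 ± 0.27 (adjusted p = 0.00403), and the call was lost without HaCaT replicate 1 (-0.95) or HaCaT-p65 replicate 3 (-0.91). HOXC10 read 8.26, 8.17 and 8.32 in HaCaT-p65 and 8.66, 8.63 and 8.49 in HaCaT, a change of -0.35 ± 0.08 (adjusted p = 0.00633), lost without HaCaT-p65 replicate 2 (-0.31).

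Starved cells of HaCaT-vector, HaCaT-EGFR and HaCaT-p65 came from other arrays than the serum cells and, but for date 6 of HaCaT-EGFR, from other processing dates. HaCaT-EGFR had 3 HOX genes higher and 1 lower than HaCaT-vector, where 7.89% of all genes were called in either direction, and HaCaT-p65 had 2 higher and 1 lower, where 5.3% were. HOXD8 read 4.38, 4.85, 4.72 and 4.68 in starved HaCaT-vector, from 6.03 to 6.79 (median 6.45) in HaCaT-EGFR and 6.72, 5.89 and 6.45 in HaCaT-p65, again without overlap. The differences were 1.81 ± 0.33 (adjusted p = 0.000146) and 1.70 ± 0.40 (adjusted p = 0.0057).

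In starved cells HOXD10 passed in neither HaCaT-EGFR nor HaCaT-p65 against HaCaT-vector. It read 9.24, 9.28, 9.23 and 9.25 in HaCaT-vector, from 9.10 to 9.42 (median 9.20) in HaCaT-EGFR and 9.59, 9.62 and 9.45 in HaCaT-p65. HaCaT-vector and HaCaT-EGFR overlapped, and the HaCaT-p65 arrays lay above both. The 95% interval of the difference from HaCaT-vector was -0.25 to 0.21 in HaCaT-EGFR and 0.02 to 0.58 in HaCaT-p65. HOXD9 read 7.51, 7.53, 7.35 and 7.32 in starved HaCaT-vector, from 7.28 to 7.73 (median 7.38) in HaCaT-EGFR and 7.84, 7.76 and 7.80 in HaCaT-p65. Its intervals were -0.33 to 0.34 and -0.04 to 0.78. Again HaCaT-vector and HaCaT-EGFR overlapped, and HaCaT-p65 lay above both.

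HOXB6 was higher in starved HaCaT-EGFR and lower in starved HaCaT-p65. It read 4.93, 4.75, 5.32 and 5.25 in HaCaT-vector, from 5.59 to 6.25 (median 5.92) in HaCaT-EGFR and 4.34, 4.14 and 3.89 in HaCaT-p65, with no overlap among the 3 lines. The differences from HaCaT-vector were 0.87 ± 0.21 (adjusted p = 0.0048) and -0.94 ± 0.25 (adjusted p = 0.0202). HOXB7 was higher in HaCaT-EGFR by 0.53 ± 0.12 (adjusted p = 0.00266).

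HOXB2 was lower in HaCaT-EGFR, with arrays at 5.30, 5.39, 5.34 and 5.40 in HaCaT-vector and from 3.68 to 4.9995 (median 4.06) in HaCaT-EGFR, a difference of -1.13 ± 0.25 (adjusted p = 0.00219). HOXD4, whose signal stayed under the dim mark in every condition mean, read 4.95, 4.41 and 4.34 in HaCaT-p65 and 3.64, 3.55, 3.47 and 3.73 in HaCaT-vector, a difference of 0.97 ± 0.27 (adjusted p = 0.0263). Outside the serum arrays, HaCaT-vector shared only date 6 with HaCaT-EGFR and no date with HaCaT-p65, and date 6 held 1 starved array of HaCaT-vector. Without it HOXB2 (-1.05) and HOXB7 (0.49) in HaCaT-EGFR and HOXB6 (-0.62), HOXD4 (1.195) and HOXD8 (1.74) in HaCaT-p65 were no longer called. HOXB6 in HaCaT-p65 was also lost without its date 3 replicate 2 (-0.79), after median centring (adjusted p = 0.0671) and with the replicate block (adjusted p = 0.0529), and HOXD4 without its 4 h array of date 2 (0.78).

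**Figure D4:**
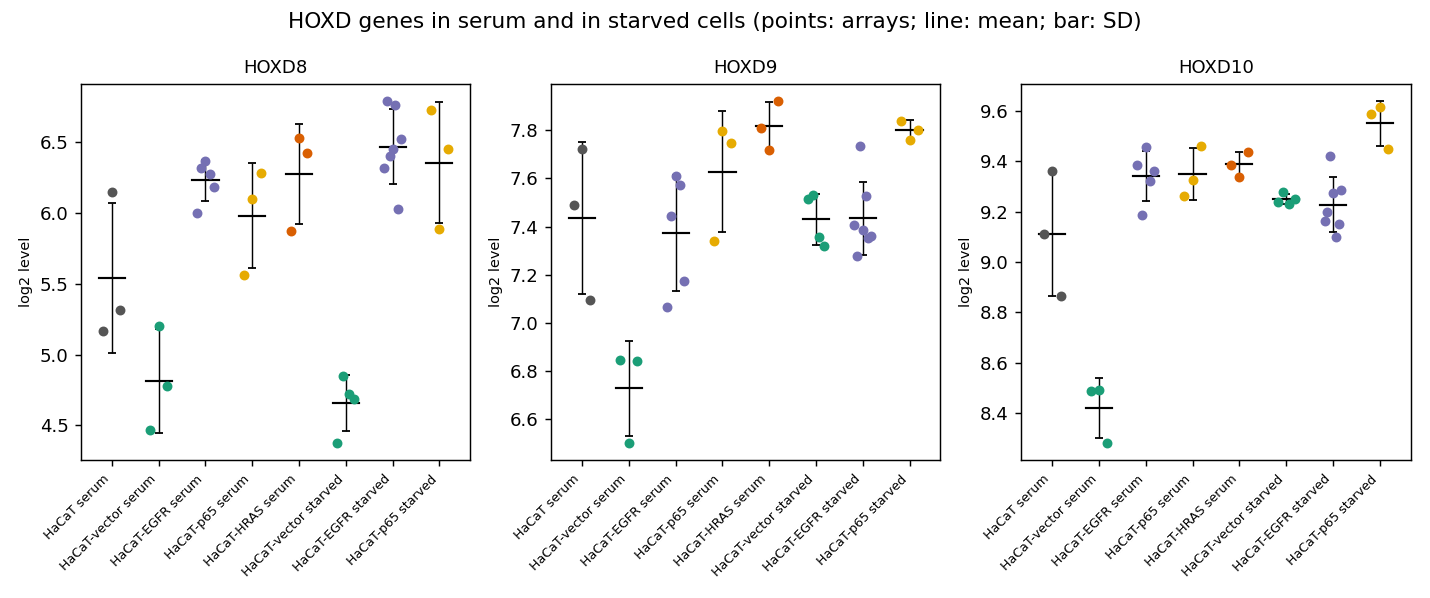
Log2 levels of HOXD8, HOXD9 and HOXD10 in serum and in starved cells, with points for arrays, a line for the mean and bars for the SD. HOXD8 stays low in HaCaT-vector in both media. HOXD9 and HOXD10 are lowest in HaCaT-vector in serum, while in starved cells HaCaT-vector overlaps HaCaT-EGFR and lies below HaCaT-p65.

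Serum against starved cells was compared within each of these lines. HaCaT-EGFR had 1 HOX gene lower in serum, where 1.99% of all genes were lower, HaCaT-vector had 1, where 0.642% were, and HaCaT-p65 had 0 called, where 0.703% were called in either direction and 5 HOX genes had an unadjusted p under 0.05. HaCaT-EGFR was the only line with both media on 1 date, so values of the other lines rest on date differences estimated through it.

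HOXA2 in HaCaT-EGFR read 5.94, 6.57, 6.88, 6.29 and 6.63 in serum and from 7.21 to 7.67 (median 7.43) in starved cells, without overlap. The change was -0.99 ± 0.21 (adjusted p = 0.00487). Within date 6, which held 2 serum and 3 starved arrays, the difference was -0.97. Without the 4 h serum array of that date the change was -0.82 and was not called. In HaCaT-vector and HaCaT-p65 HOXA2 changed by -0.84 and -0.70 and was not called. Both changes had an unadjusted p under 0.05 by limma, and serum arrays lay below starved arrays without overlap in either line.

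HOXD10 in HaCaT-vector read 8.49, 8.49 and 8.28 in serum and 9.24, 9.28, 9.23 and 9.25 in starved cells, a change of -0.83 ± 0.16 (adjusted p = 0.0048). In HaCaT-EGFR its change was 0.11, with an interval of -0.10 to 0.33. The difference between the lines in the response to serum was 0.94 ± 0.15 (adjusted p = 0.000595), where 0.142% of all genes were higher. HOXD9 gave 0.64 ± 0.22 (adjusted p = 0.445) in the same comparison and did not pass. Without the date 6 starved array of HaCaT-vector both calls were lost, at changes of -0.83 and 0.94. Between HaCaT-p65 and HaCaT-vector the difference was 0.63 ± 0.17 (adjusted p = 0.0748), and 0 HOX genes passed, where 0.678% of all genes did and 5 HOX genes had an unadjusted p under 0.05.

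EGF asks what the receptor's ligand adds to starved cells. In HaCaT-EGFR, 4 HOX genes were lower with EGF and 0 were higher by limma, with 11 at an unadjusted p under 0.05 in either direction, where 4.93% of all genes were lower. They were HOXA2, HOXB7, HOXC4 and HOXC6. In serum the levels of HOXA2 were 5.97, 5.98 and 6.68 in HaCaT, 6.22, 6.72 and 6.53 in HaCaT-vector, 5.94, 6.57, 6.88, 6.29 and 6.63 in HaCaT-EGFR, 6.60, 6.94 and 7.46 in HaCaT-p65 and 6.14, 6.59 and 6.71 in HaCaT-HRAS. HOXC4 read 7.00, 7.88 and 8.09 in HaCaT, 7.08, 7.82 and 7.40 in HaCaT-vector, 7.18, 8.07, 7.54, 7.72 and 7.48 in HaCaT-EGFR, 7.18, 7.56 and 8.07 in HaCaT-p65 and 7.70, 8.05 and 7.98 in HaCaT-HRAS. HOXC6 read 7.41, 7.78 and 7.86 in HaCaT, 7.17, 7.56 and 7.53 in HaCaT-vector, 7.55, 7.97, 7.97, 7.78 and 7.88 in HaCaT-EGFR, 7.14, 7.89 and 7.96 in HaCaT-p65 and 7.03, 7.61 and 7.57 in HaCaT-HRAS. HOXC4 and HOXC6 overlapped among all 5 lines, and HOXA2 had its lowest mean in HaCaT and its highest in HaCaT-p65.

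HOXC6, which is expressed in the trunk of the embryo, ran from 7.99 to 8.83 (median 8.47) in starved HaCaT-EGFR and from 7.61 to 8.04 (median 7.71) with EGF. The lowest starved array lay below the highest EGF array, and the groups were otherwise apart. The change was -0.64 ± 0.13 (adjusted p = 0.00104), and within dates 2, 3 and 6 it was -0.70, -0.68 and -0.58. HOXA2 ran from 7.21 to 7.67 (median 7.43) in starved cells and from 6.77 to 7.06 (median 6.93) with EGF, without overlap. Its change was -0.54 ± 0.13 (adjusted p = 0.00521), and within the dates -0.57, -0.59 and -0.48.

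HOXC4 ran from 7.81 to 8.30 (median 8.23) in starved cells and from 7.44 to 7.80 (median 7.66) with EGF, and the groups did not overlap. The change was -0.49 ± 0.14 (adjusted p = 0.0169), and within dates -0.42, -0.58 and -0.47. HOXC4, HOXC5 and HOXC6 share an annotated start, and each has a probe set of its own here. HOXB7 ran from 8.92 to 9.34 (median 9.01) in starved cells and from 8.70 to 8.88 (median 8.80) with EGF, without overlap, a change of -0.31 ± 0.07 (adjusted p = 0.00252) and within dates -0.32, -0.36 and -0.27. Each of the 4 genes moved the same way on all 3 dates. With the 4 h arrays alone HOXA2 (-0.50, adjusted p = 0.0543) and HOXC4 (-0.44, adjusted p = 0.135) were not called.

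In HaCaT-vector 0 HOX genes passed with EGF, where 1.01% of all genes did and 7 HOX genes had an unadjusted p under 0.05. Levels of HOXA2 were 7.40, 7.27, 7.10 and 7.57 in starved cells and 6.94, 6.88, 6.98 and 6.62 with EGF, and the changes were -0.48 ± 0.18 for HOXA2, -0.42 ± 0.18 for HOXC6, -0.44 ± 0.18 for HOXC4 and -0.22 ± 0.09 for HOXB7. The difference between the lines in the response to EGF passed for 0 HOX genes and 0% of all genes, and 0 HOX genes had an unadjusted p under 0.05. Its 95% interval was -0.50 to 0.39 for HOXA2, -0.67 to 0.22 for HOXC6, -0.52 to 0.42 for HOXC4 and -0.32 to 0.15 for HOXB7, which does not show that the lines responded alike.

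Gefitinib was combined with EGF on 2 arrays, 1 at 4 h and 1 at 8 h. Against EGF alone 0 HOX genes passed, where 1.81% of all genes did and 5 HOX genes had an unadjusted p under 0.05. HOXA2 read 7.56 and 7.49 with both, above the 7 EGF arrays, a change of 0.60 ± 0.21 (adjusted p = 0.143). HOXC6 read 8.43 and 8.41 (0.63 ± 0.21, adjusted p = 0.12) and HOXC4 8.25 and 8.24 (0.61 ± 0.22, adjusted p = 0.168), also above all EGF arrays. HOXB7 changed by 0.09, with an interval of -0.14 to 0.31.

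Added to serum, on 1 array at 4 h and 1 at 8 h, gefitinib gave 1 HOX gene higher and 1 lower, where 1.79% of all genes were called. HOXA2 read 7.32 and 7.38 against 5.94, 6.57, 6.88, 6.29 and 6.63 in serum alone, a change of 0.89 ± 0.24 (adjusted p = 0.0427). HOXB6 read 5.47 and 5.51 against 6.32, 6.27, 6.42, 6.32 and 6.36, a change of -0.85 ± 0.23 (adjusted p = 0.036). Neither gene overlapped between the conditions. Both calls were lost without any of the 4 arrays of date 6, with changes of 0.72 to 1.06 for HOXA2 and of -0.87 to -0.83 for HOXB6.

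**Figure D5:**
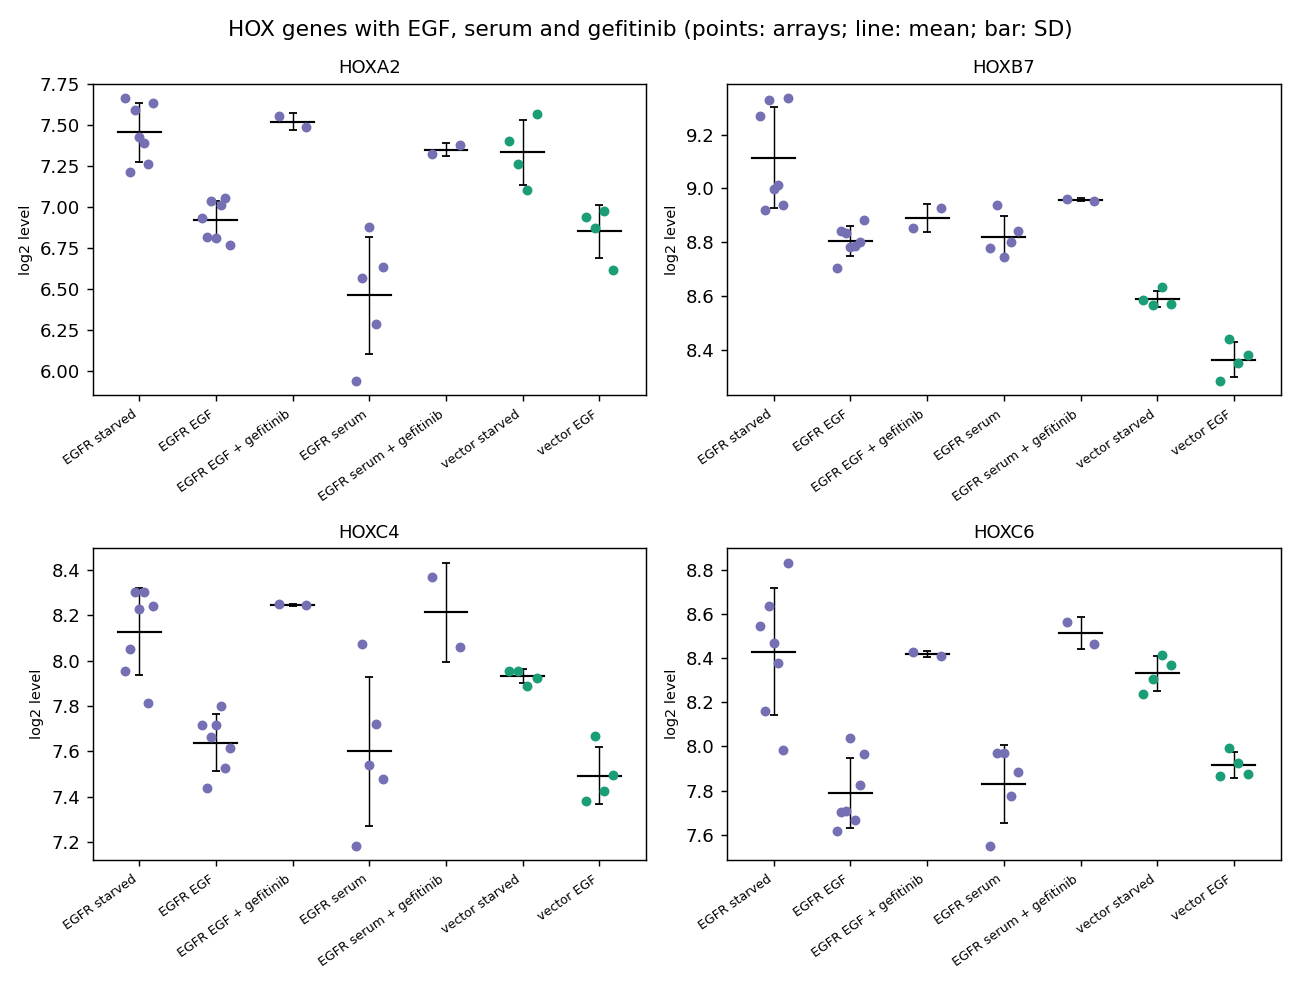
Log2 levels of HOXA2, HOXB7, HOXC4 and HOXC6 in HaCaT-EGFR without ligand, with EGF, with serum and with gefitinib, and in HaCaT-vector without ligand and with EGF. Points are arrays, with a line for the mean and bars for the SD, and EGF arrays lie lower than starved arrays, while the 2 arrays with EGF and gefitinib lie among the starved arrays for HOXA2, HOXC4 and HOXC6.

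TNF-α, a ligand that activates NF-kappa-B, was given to HaCaT-p65, and 1 HOX gene was lower than in starved cells, where 1.34% of all genes were lower. HOXC11 read 7.17, 7.30 and 6.81 in starved HaCaT-p65 and 6.04, 6.14, 6.42, 6.78 and 6.81 with TNF-α, a change of -0.65 ± 0.18 (adjusted p = 0.0477). The lowest starved array and the highest TNF-α array both rounded to 6.81, and the groups did not overlap. Within date 2 the difference was -1.14 (2 against 2 arrays) and within date 3 it was -0.14 (3 against 1), and the call was lost without any of the 4 arrays of date 2 (-0.62 to -0.52) or without 1 of the 2 TNF-α arrays of date 3 numbered replicate 2 (-0.65, adjusted p = 0.0601). An array coded as TNF-α at 4 h, replicate 3 of date 3, is described as a control in the study's sample sheet and was kept with TNF-α. Without it HOXC11 was still called, and the call was lost under 8 of the 12 alternatives other than leaving out each array in turn. In HaCaT-vector 0 HOX genes passed with TNF-α, where 0.905% of all genes did and 1 HOX gene had an unadjusted p under 0.05. The difference between the lines passed for 0 HOX genes, where 0.0101% of all genes did and 1 HOX gene had an unadjusted p under 0.05, and its interval for HOXC11 was -0.95 to 0.15.

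LY294002 with EGF against EGF, averaged over HaCaT-vector and HaCaT-EGFR, gave 0 HOX genes called, where 0.693% of all genes were and 4 HOX genes had an unadjusted p under 0.05. The lowest p was that of HOXC10 (-0.32 ± 0.09, adjusted p = 0.0693). U1026 gave 0, where 3.02% of all genes were called and 3 HOX genes had an unadjusted p under 0.05. With 1 array per line and inhibitor, the spread was taken from the other groups.

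Genes that work with the HOX genes or lie beside them were taken from lists that were chosen with earlier results of these data known. Of 8 measured cofactors of the TALE class, with which HOX proteins bind DNA, 1 was higher in HaCaT-HRAS than in HaCaT-vector, where 9.57% of all genes were, MEIS2 (0.81 ± 0.18). PBX3 was higher in HaCaT (1.00 ± 0.15), HaCaT-EGFR (1.15 ± 0.15) and HaCaT-p65 (0.83 ± 0.15). MEIS2 was higher in HaCaT-p65 as well (0.76 ± 0.18) and fell by 0.55 with EGF in HaCaT-EGFR. No further cofactor passed between the other lines and HaCaT-vector in serum. Of all genes, 2.87% were called in either direction in HaCaT, 7.87% in HaCaT-EGFR and 7.18% in HaCaT-p65.

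Of 25 measured Polycomb genes, 2 were higher and 4 lower in HaCaT-HRAS than in HaCaT-vector, where 18.2% of all genes were called in either direction, 9.57% higher and 8.63% lower. PHC3 (-0.67 ± 0.11), JARID2 (-0.57 ± 0.15), PHF19 (-0.45 ± 0.12) and SUZ12 (0.39 ± 0.11), a core subunit of the H3K27 methyltransferase, had the largest changes, and JARID2 lost its call without HaCaT-HRAS replicate 1 (adjusted p = 0.0512). The other 2 genes called were MTF2 and RBBP7, named after their values were seen. MTF2 lost its call without HaCaT-vector replicate 1 or HaCaT-HRAS replicate 3 (adjusted p up to 0.0841), and RBBP7 lost it without any of 5 of the 6 arrays, HaCaT-HRAS replicate 1 excepted (up to 0.165). ASXL1 was the only one called between the other lines and HaCaT-vector in serum, higher by 0.52 ± 0.10 in HaCaT, 0.88 ± 0.10 in HaCaT-EGFR and 0.54 ± 0.10 in HaCaT-p65. Of all genes, 2.87%, 7.87% and 7.18% were called in either direction in these comparisons. Among 15 genes of the Trithorax group and H3K27 demethylases, 2 were lower in HaCaT-HRAS, where 8.63% of all genes were, PSIP1 (-0.65 ± 0.09) and WDR5 (-0.56 ± 0.11), and PSIP1 was lower in HaCaT too (-0.59 ± 0.09). The medians of the change over all measured members were -0.04 and -0.13, beside -0.04 over all genes.

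Of 18 retinoid signaling genes, 3 were higher and 1 lower in HaCaT-HRAS, against 9.57% and 8.63% of all genes. ALDH1A1, which makes retinoic acid, was higher by 2.34 ± 0.40, and CYP26B1, which breaks it down, was lower (-1.31 ± 0.26). DHRS3 (0.68 ± 0.19) lost its call without HaCaT-vector replicate 3 (adjusted p = 0.0526), and TGM2 (0.56 ± 0.15) without replicate 2 of either line (adjusted p up to 0.109). CRABP2, a carrier of retinoic acid, was higher than in HaCaT-vector in HaCaT-EGFR (1.60 ± 0.30) and HaCaT-p65 (1.29 ± 0.30), and in HaCaT (1.32 ± 0.30), where the call was lost without HaCaT replicate 2 (adjusted p = 0.123). The median change over the list in HaCaT-HRAS was -0.10.

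Genes outside but next to the clusters were measured for 22 flanking genes, of which 3 were higher and 2 lower in HaCaT-HRAS, against 9.57% and 8.63% of all genes. SKAP1, the gene that borders the low-numbered end of the HOXB cluster, was higher by 2.10 ± 0.19 (adjusted p = 2.06e-11). HOXB1 and HOXB2, which lie between SKAP1 and HOXB3, did not pass, and no other flanking gene beside HOXB did. JAZF1, beside the HOXA cluster, was lower (-1.18 ± 0.18), as was TAX1BP1, also beside it (-0.43 ± 0.11). SNX10 (0.52 ± 0.17) lost its call without HaCaT-vector replicate 1 or 3 or HaCaT-HRAS replicate 2 or 3 (adjusted p up to 0.122), and HNRNPA1, the remaining higher gene and named after its values were seen, without replicate 2 of either line (up to 0.0591). JAZF1 was also lower in HaCaT-EGFR (-0.92 ± 0.18), and SNX10 was higher in HaCaT-p65 (1.55 ± 0.17). Of 11 noncoding RNAs of the clusters, only HOXB-AS1, antisense within HOXB, was called in HaCaT-HRAS, where 9.57% of all genes were higher. It was higher by 0.77 ± 0.20 (adjusted p = 0.00452), a call lost without HaCaT-HRAS replicate 3 (adjusted p = 0.0915). HOXD-AS2, within HOXD near HOXD8, was higher than in HaCaT-vector in starved HaCaT-EGFR (1.196 ± 0.23) and starved HaCaT-p65 (0.97 ± 0.28), where 3.95% and 2.34% of all genes were higher. Both calls were lost without the date 6 HaCaT-vector array and the latter also without HaCaT-p65 date 3 replicate 2 (adjusted p up to 0.271). Among 20 other homeobox genes, DLX3, an epidermal factor, was lower in HaCaT-HRAS (-2.52 ± 0.25) and MEOX1 was higher (1.68 ± 0.22), with 1 higher and 2 lower in all, against 9.57% and 8.63% of all genes. The other lower gene, DLX2, lost its call without any of 4 of the 6 arrays, replicates 1 and 3 of HaCaT-vector and 2 and 3 of HaCaT-HRAS (adjusted p up to 0.132). DLX3 was also lower than in HaCaT-vector in HaCaT-EGFR (-0.82 ± 0.25) and HaCaT-p65 (-0.87 ± 0.25). The first of these calls was lost without HaCaT-vector replicate 1 or 3 or date 1 replicate 2 or 3 of HaCaT-EGFR (adjusted p up to 0.174) and the second without HaCaT-vector replicate 1 or HaCaT-p65 replicate 3 (up to 0.131).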

How the data were processed

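RNA of HaCaT keratinocytes and 4 derived lines was hybridised to 58 Affymetrix U133 Plus 2.0 arrays. The authors summarised the probe sets by frozen robust multiarray analysis and subtracted the effect of processing date, and the deposited values are log2 levels. GEO's labels name the RNeasy kit for all samples, while the study's sample sheet gives Trizol for the arrays of date 6, and 1 array coded as TNF-α is described there as a control. The submitters' processing notes name limma without a version.

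Of 54675 probe sets, 41097 name 1 gene, 1801 name several and 11777 name none in the platform annotation. Probe sets with 1 symbol were used, the one with the highest mean per gene, which gave 19775 genes. The values were refitted with limma 3.58.1 in R 4.3.3 with 18 conditions and 6 processing dates (35 residual degrees of freedom), moderated by eBayes, and Benjamini-Hochberg adjustment covered every gene (threshold 0.05). In this refit the largest absolute date coefficient was 1.17e-08, so the date term did not alter the changes. It did use degrees of freedom, and it widened the standard errors of comparisons across dates. Corrected levels of different dates rest on the authors' model. The serum arrays of date 1 are tied to the other dates only through HaCaT-EGFR, which had serum arrays on dates 1 and 6. The date correction therefore gave HaCaT-EGFR the same mean in serum on both dates. Precision is limited by how many arrays a condition has. The fit was tested on simulated data with independent arrays. For HaCaT-HRAS against HaCaT-vector in serum it recovered 30.3%, 83.6% and 100% of added log2 changes of 0.5, 1 and 2. For EGF in HaCaT-EGFR it recovered 60.6%, 97% and 100%. A gene that did not pass can therefore still have changed, above all by small amounts. On date 1, same-numbered arrays deviated together, with every correlation over 0.1, in 3 of 10 pairs of lines, which were HaCaT-vector with HaCaT-EGFR (0.22 to 0.53), HaCaT-vector with HaCaT-HRAS (0.19 to 0.53) and HaCaT-EGFR with HaCaT-HRAS (0.19 to 0.49). This pairing comes from the data alone, and the labels do not say what a number shares.

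The HOX genes and the other lists were chosen with earlier results of these data known. Values on every serum array were given for up to 12 genes with the largest range of line means past the F test and for every HOX gene called in a media, ligand or inhibitor comparison, and at most 4 genes per comparison were named from each other list. HOXC9, HOXC10 and HOXD11 were given beside their calls, and HOXB2 and HOXD4 for the starved lines. Alternatives were no date term, only the arrays compared, a replicate block, median centring, quantile normalization, a minimum mean of 5, an intensity trend with robust eBayes, other probe sets, the 4 h arrays alone, the array described as a control left out and each array left out. The arrays of date 6 left out, the serum arrays of date 1 alone and the interaction of line and serum were added after seeing the data.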

Additional observations from a re-analysis of the deposited data

Results flagged for a closer look

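Of 90 groups of 4 to 10 arrays examined for 15 HOX genes, 3 held an array far from the others of its group, where chance gives about 1 in 20 groups. HOXB3 in HaCaT-p65 with TNF-α was highest on the 4 h array of date 3 numbered replicate 3 (6.00, the other arrays 5.41 to 5.52), which is the array that the sample sheet describes as a control. HOXC11 in HaCaT-vector with EGF was highest on the 4 h array of date 5 numbered replicate 1 (7.14, the others 6.88 to 6.92). HOXD13 in starved HaCaT-EGFR was lowest on the 4 h array of date 2 numbered replicate 1 (4.22, the others 4.56 to 4.81). HOXD10 responded to serum differently in HaCaT-EGFR and HaCaT-vector, by 0.94 ± 0.15 (SE, limma adjusted p = 0.000595), a call lost without the date 6 starved array of HaCaT-vector.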

How the results depend on the processing

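Of 71 gene results, each a HOX gene in a comparison that called it, 48 kept their call whichever array was left out. Over 696 values under the other alternatives, 627 kept direction and call, 66 lost the call and 3 reversed. The 3 were HOXD9 with the probe set of largest variance, at -0.037 in HaCaT, -0.0398 in HaCaT-p65 and -0.21 in HaCaT-HRAS against HaCaT-vector. In HaCaT-HRAS against HaCaT-vector, HOXB3, HOXB5, HOXB6, HOXB7, HOXB9, HOXC11, HOXD8, HOXD10 and HOXD13 kept their calls wherever they were tested, as did HOXB8, and a minimum mean of 5 removed HOXB8 and HOXD13. For all of these but HOXB7 and HOXD10, the probe set of largest variance was the one already used. With all probe sets, the one with the lowest p-value stood for the gene. These alternatives, also counted above, could not show that probe sets moved alike. The remaining probe sets of HOXB3, HOXB5, HOXB6, HOXB8 and HOXD13 did not pass, as given above. HOXC9 lost its call under 5 alternatives, among them both scalings.

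The number of HOX genes called moved by over 1.5 times as follows. With no date term it was 2 for HaCaT-EGFR against HaCaT, 7 for starved HaCaT-EGFR and 7 for starved HaCaT-p65 against HaCaT-vector, 11, 11 and 6 for serum against starved in HaCaT-EGFR, HaCaT-vector and HaCaT-p65, 3 and 4 for the difference of HaCaT-EGFR and of HaCaT-p65 from HaCaT-vector in that response, 1 for EGF in HaCaT-vector, 3 for TNF-α in HaCaT-p65, 2 for gefitinib with EGF, 5 for gefitinib with serum and 1 for LY294002. This fit counts no degrees of freedom for the dates already subtracted and does not widen the standard errors of comparisons across dates. With only the arrays compared it was 0 for HaCaT against HaCaT-vector and for HaCaT-EGFR and HaCaT-p65 against HaCaT, 1 and 0 for starved HaCaT-EGFR and HaCaT-p65, 0 and 6 for serum in HaCaT-EGFR and HaCaT-vector, 0 for their difference, 3 for EGF in HaCaT-vector, 0 for TNF-α in HaCaT-p65 and 1 for gefitinib with serum. HOXB7 also lost its EGF call in HaCaT-EGFR there (adjusted p = 0.0630). TNF-α in HaCaT-p65 gave 0 and gefitinib with serum gave 0 after median centring, 0 and 1 after quantile normalization, 0 and 0 with the probe set of largest variance, and 0 and 1 with all probe sets. With the probe set of largest variance serum in HaCaT-vector and its difference from HaCaT-EGFR gave 0 and 0. With a minimum mean of 5, serum in HaCaT-p65 against HaCaT-vector and LY294002 gave 1 each. TNF-α in HaCaT-p65 gave 0 with the 4 h arrays alone. Without date 6, EGF in HaCaT-EGFR gave 2, losing HOXA2 (-0.58) and HOXC4 (-0.50), and TNF-α in HaCaT-p65 gave 0. The cause was not tested.

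Replicate numbers went with shared deviations in part. On date 1, 22 of 30 pairs with the same number had deviations that correlated over 0.1 (median 0.24, lowest -0.19), against 13 of 60 pairs with different numbers (median -0.17), and on the other dates 19 of 63 and 3 of 79 did. With the replicate block (27 residual degrees of freedom) the counts were 4 and 2 for serum in HaCaT-EGFR and HaCaT-vector, 1 for EGF in HaCaT-vector, 1 for gefitinib with EGF, 4 for gefitinib with serum and 0 for HaCaT-p65 given TNF-α, and the other counts moved by less than 1.5 times. The block ended the calls of HOXD10 in HaCaT-HRAS against HaCaT, HOXB6 in starved HaCaT-p65 and HOXC11 with TNF-α (adjusted p = 0.0563), and no other call of a named gene. On date 1, 11 of 15 arrays had their highest mean correlation with arrays of their own number. Deviations are taken from each condition's mean, so high correlations with the same number lower those with other numbers. Pairs with different numbers are therefore no independent baseline.

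Without 1 array at a time the counts ran from 13 to 16 for the 5 lines, 3 to 4, 5 to 5, 3 to 7 and 11 to 13 for HaCaT, HaCaT-EGFR, HaCaT-p65 and HaCaT-HRAS against HaCaT-vector, and 1 to 1, 1 to 4 and 7 to 11 for HaCaT-EGFR, HaCaT-p65 and HaCaT-HRAS against HaCaT. They ran from 2 to 5 and 0 to 3 for starved HaCaT-EGFR and HaCaT-p65, 0 to 2, 0 to 1 and 0 to 0 for serum in HaCaT-EGFR, HaCaT-vector and HaCaT-p65, 0 to 1 for the difference between HaCaT-EGFR and HaCaT-vector, 4 to 5 for EGF in HaCaT-EGFR, 0 to 3 for TNF-α in HaCaT-p65 and 0 to 2 for gefitinib with serum. The remaining comparisons gave 0 each time. A fit without a single inhibitor array has no value for its condition and was not run.

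Among called genes TNF-α in HaCaT-p65 had 34.3% higher, and 52.9% after quantile normalization, and LY294002 had 35.8%, and 25.3% after median centring. Scaling moved the median of all genes by at most 0.063 in a comparison. The share of higher among called genes went from 38.7% to 28.6% for serum in HaCaT-EGFR and from 47.6% to 58.8% for HaCaT-p65 against HaCaT after median centring. Signals near the dim mark of 5.097, as of HOXD13 outside HaCaT-HRAS, limit how small a level can be told from background.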
